A study of Homo sapiens with 9 samples.

Results

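A673 cells, an established line of Ewing sarcoma with an EWS/FLI fusion, were transfected with EZH2 siRNA no.2, and their expression profile was set against that of cells given a control siRNA. All probe sets of the 2 EZH2 siRNA no.2 arrays and the 2 control siRNA arrays were compared, which is 4 of the study's 9 human Affymetrix arrays. Both siRNAs were used at 5 nM for 48 hours together with a transfection reagent. The remaining arrays came from cells in 0.01% DMSO for 24 hours (2 arrays), in 100 nM trichostatin A (TSA), a histone deacetylase inhibitor, for 24 hours (2 arrays), and from a single transfection with a different EZH2 siRNA, unnumbered in its title and called the other EZH2 siRNA here. The DMSO cells received no siRNA and were harvested earlier, so they served as a check on each difference and not as a matched control. Every group shares the one cell line and its fusion gene. The replicates are titled biological, but whether they were separate cultures is not stated, so p-values reflect no more than how far these arrays spread, which may be technical.

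EZH2 is the catalytic subunit of Polycomb repressive complex 2 (PRC2), which methylates lysine 27 of histone H3 and so keeps developmental genes silent. In Ewing sarcoma the fusion protein EWS/FLI activates one set of genes and represses another, and the repressed set is rich in genes of a mesenchymal programme. EZH2 is a known target of the fusion and was studied here as a block on endothelial and neural differentiation.

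Signals are MAS5 intensities, which have no fixed unit. Array medians ran from 125 to 159, with the lowest in control siRNA replicate 1, and the mean trimmed by 2% at each end was 500.1 to 500.2 on all 9 arrays. Across the genes tested, on the log2 scale, the control siRNA replicates correlated at r = 0.957 and the EZH2 siRNA no.2 replicates at r = 0.959. The knockdown and control siRNA arrays correlated at r = 0.970 in replicate 1 and 0.955 in replicate 2. Replicates of a treatment were thus no more alike than the treatments were in replicate 1. Hybridisation spike-ins averaged 9.80 on the log2 scale on the array of the other EZH2 siRNA. They averaged 10.16 (control siRNA) and 9.81 (knockdown) in replicate 1, below the 10.53 of both replicate 2 arrays. Differences are therefore also given within each replicate number. All 5 Ewing sarcoma markers with a probe set of one gene (CD99, CAV1, STEAP1, NKX2-2 and FLI1) lay above the filter on low signals, with sums of 38919 to 45972 on these 4 arrays, against 0 of 7 epithelial markers. The number of arrays limits the precision, and with 2 arrays a group the smallest p of an exact permutation test is 0.333.

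EZH2 itself gave signals of 1130.1 and 1172 in control siRNA replicates 1 and 2 and 572 and 271 in EZH2 siRNA no.2 replicates 1 and 2. Both knockdown arrays lay below both control arrays and below both DMSO arrays, which read 990.1 and 861. The log2 fold change was −1.48 (SE 0.32), made up of −0.95 in replicate 1 and −2.02 in replicate 2, and against DMSO the difference was −1.17. The knockdown mean was 36.6% of the control siRNA mean, and the single array of the other EZH2 siRNA read 681. EZH2 did not pass the adjusted limma threshold over all genes (adjusted p = 0.862, lower in 2 of 2 arrays). Without EZH2 siRNA no.2 replicate 2 its log2 fold change was −0.98, and without EZH2 siRNA no.2 replicate 1 it was −1.99.

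**Figure D1:**
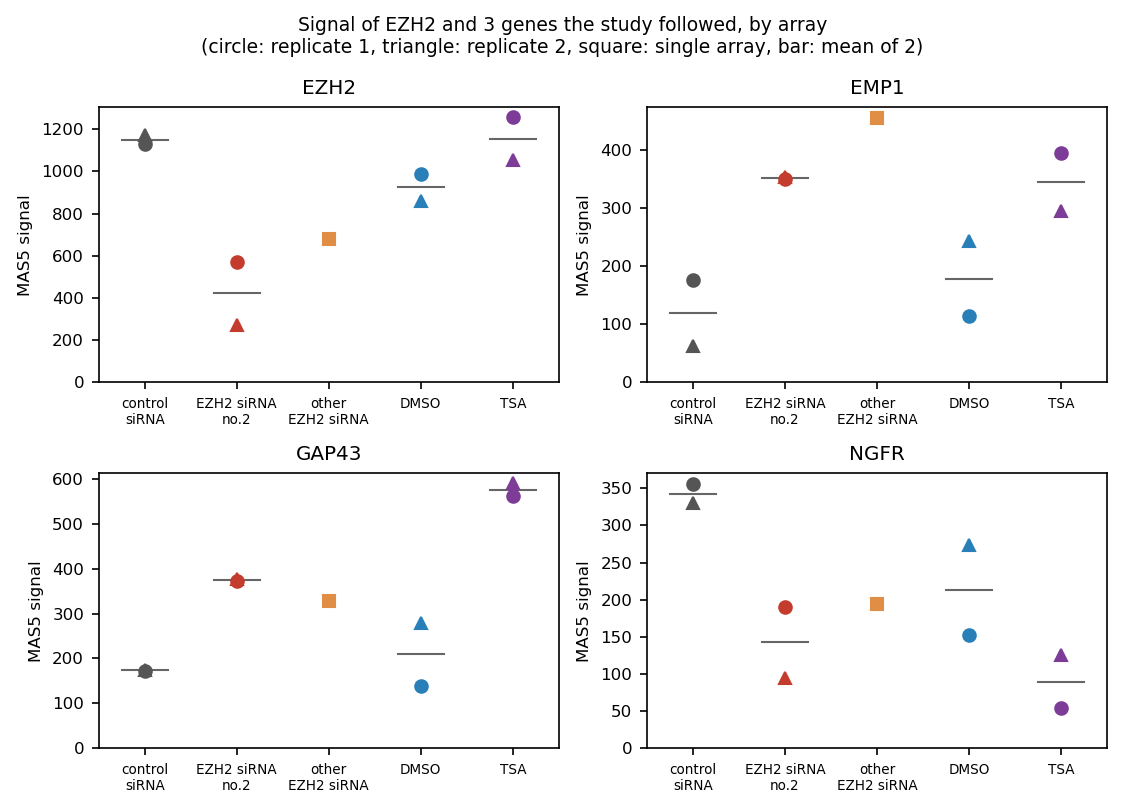
MAS5 signal (linear axis from 0) of EZH2 and of the study genes EMP1, GAP43 and NGFR on each of the 9 arrays; circles are replicate 1, triangles replicate 2, the square is the single array of the other EZH2 siRNA and bars are means of 2 arrays. EZH2 siRNA no.2 stood at 572 and 271 for EZH2, below all other arrays, and at 351 and 353 for EMP1, above both control siRNA and both DMSO arrays.

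The study followed 4 genes as readouts of differentiation. EMP1, an epithelial membrane protein, read 351 and 353 in the knockdown arrays against 175 and 62.7 in the control siRNA arrays and 113 and 243 in DMSO. The knockdown values nearly coincided while the control values differed widely, so the log2 difference was 0.91 in replicate 1 and 2.11 in replicate 2, and another probe set gave 0.90. GAP43, a protein of neuronal growth cones, read 372 and 377 against 173 and 175, with DMSO arrays at 139 and 279. The log2 fold change of GAP43 was 1.01 (SE 0.31) on this probe set and 0.02 and 0.93 on its other probe sets. NGFR, the low-affinity neurotrophin receptor, read 190.2 and 95.3 against 356 and 330.1, and the DMSO arrays at 152 and 274 overlapped the knockdown. GFAP, an astrocyte filament, lay below the filter and was not tested, with 19.5 and 9.79 in the control siRNA arrays, 34.6 and 67.3 with EZH2 siRNA no.2 and 23.8 and 17.7 in DMSO. These genes were chosen by the study on these samples, so their directions are no independent evidence.

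Over all 9103 genes tested, 0 passed limma at an adjusted p under 0.05 (0% of those tested), with a smallest adjusted value of 0.862 and of 0.315 to 0.996 among the alternatives. Without adjustment limma put 360 higher (3.95%) and 160 lower genes (1.76%) under 0.05, which is 5.71% either way, but 176 higher and 338 lower with array medians made equal. The words higher and lower below therefore describe values and not calls. At least 2-fold differences without overlap between the groups were seen for 127 higher genes (1.4%) and 40 lower genes (0.439%), while any difference without overlap was seen for 2078 higher (22.8%) and 1193 lower genes (13.1%). Of the 127 higher genes 17 had a control siRNA mean below the pseudocount of 25.1, where a fold change depends most on that constant, against 0 of the 40 lower genes. With array medians made equal, the split was 70 higher and 69 lower, and the all-gene median moved from 0.076 to −0.059.

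Each difference was then checked in the DMSO arrays. Both knockdown arrays also lay beyond both DMSO arrays for 60 of the 127 higher genes (0.659% of those tested) and for 32 of the 40 lower genes (0.352%), which is 47.2% and 80.0% of them. With array medians made equal these genes numbered 35 higher and 49 lower, so the larger count changed side. The lower genes were also the brighter ones, with a median mean signal of 317 against 120 for the higher genes beyond DMSO. By replicate number, at least 2-fold differences in the same direction in both numbers were seen for 37 higher genes (0.406%) and 11 lower genes (0.121%), of which 19 and 10 were beyond DMSO. Replicate 1 alone gave 239 higher (2.63%) and 117 lower (1.29%), and replicate 2 alone 368 (4.04%) and 224 (2.46%). Opposite differences of at least 2-fold were seen for 10 genes (0.11%).

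These counts moved when 1 array was left out. With fewer arrays to separate, a difference without overlap or beyond DMSO is easier to meet. A larger count without 1 array is therefore no measure of what that array did. Without control siRNA replicate 1 the genes of at least 2-fold without overlap numbered 284 higher and 180 lower (108 and 94 beyond DMSO), and without control siRNA replicate 2 there were 316 higher. Without EZH2 siRNA no.2 replicate 1 they were 317 and 128 (263 and 113 beyond DMSO), and without EZH2 siRNA no.2 replicate 2 the lower genes were 130 (118 higher and 125 lower beyond DMSO). Without DMSO replicate 2 the higher genes beyond DMSO numbered 93. Genes at an unadjusted limma p under 0.05 numbered 168 higher without EZH2 siRNA no.2 replicate 2 and 84 lower without control siRNA replicate 2, and 245 lower without control siRNA replicate 1.

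**Figure D2:**
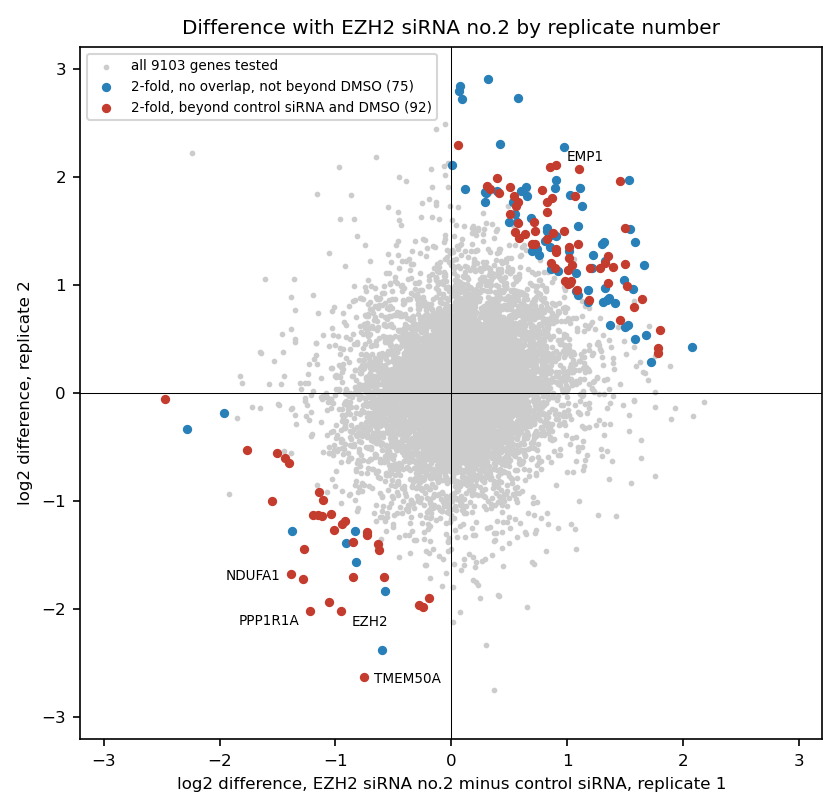
Log2 difference between EZH2 siRNA no.2 and the control siRNA in replicate 1 (x axis) and replicate 2 (y axis) for the 9103 genes tested; coloured points differed by at least 2-fold on the mean without overlap, red where both knockdown arrays also lay beyond both DMSO arrays. EZH2 sits at −0.95 and −2.02, PPP1R1A at −1.22 and −2.01 and TMEM50A at −0.76 and −2.62.

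Among the higher genes that also lay beyond DMSO, the 15 with the smallest limma p each had an adjusted p of 0.862 and were higher in 2 of 2 arrays. NFE2L1, a transcription factor that drives proteasome genes, read 2712 and 2358 with the knockdown against 1323 and 1149.8 with the control siRNA and 1641 and 1917 in DMSO. Its log2 fold change of 1.02 (SE 0.23) was the same in both replicate numbers (1.02 and 1.02), and its other probe sets gave 0.71 and 0.75. ZEB1, a repressor of epithelial genes, read 128 and 144 against 33.1 and 50.6 (log2 1.28, SE 0.35), with 58.3 and 65.8 in DMSO. The ubiquitin ligase WWP2 read 446 and 377 against 227 and 134 (log2 1.12, SE 0.30), but a further probe set of WWP2 gave −0.29.

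The death receptor TNFRSF21 read 1552 and 1578 with EZH2 siRNA no.2 against 842 and 671 with the control siRNA. DMSO arrays were at 835 and 668, level with the control siRNA. Its log2 fold change was 1.03 (SE 0.26), with 0.85 on another probe set. The cystine transporter SLC7A11, which feeds glutathione synthesis, read 1142 and 1755 against 682 and 662 with the control siRNA and 714 and 863 in DMSO (log2 1.05, SE 0.27). SLC11A1, a transporter of divalent metals, gave 1.31 (SE 0.32) from 119 and 133 to 343 and 354, but its other probe sets above the filter gave −0.12 and 0.85. PEX14, a docking protein of peroxisomal import, gave 1.07 (SE 0.28) from 382 and 271 to 794 and 627, and 0.20 on a further probe set.

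Of the semaphorin pathway, the ligand SEMA3A and the coreceptor NRP1 both lay above both backgrounds. SEMA3A read 218 and 269.8 with the knockdown, 117 and 55.3 with the control siRNA and 119 and 116 in DMSO (log2 1.33, SE 0.39). NRP1 read 243 and 245 with the knockdown, against 121 and 71.5 with the control siRNA and 157 and 133 in DMSO (log2 1.18, SE 0.31), with 0.46 on another probe set. Control siRNA replicate 2 was the lowest of these arrays for both genes, and the knockdown minus DMSO was 0.91 for SEMA3A and 0.67 for NRP1.

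The matricellular protein CCN1 read 611 and 1144 with EZH2 siRNA no.2, 401 and 318 with the control siRNA and 233 and 284 in DMSO. CCN1 was the gene of these 15 with the largest knockdown minus DMSO difference (1.61), and its log2 fold change against the control siRNA was 1.17 (SE 0.32), with 0.84 on another probe set. The fibrillar collagen chain COL5A2 read 2237 and 2894 against 1512 and 856 (log2 1.14, SE 0.32), with DMSO at 1594 and 2119, just under the lower knockdown array, and 0.64 on another probe set. NOLC1, a nucleolar phosphoprotein, gave 1.30 (SE 0.36) and the stress granule protein G3BP2 1.25 (SE 0.33), with DMSO above the control siRNA by 0.58 and 0.90. Further probe sets gave 0.98 and 0.55 for NOLC1 and 0.26 and 0.35 for G3BP2. TMEM209 gave 1.11 (SE 0.31), and the other EZH2 siRNA read 75.9, between the control signals of 82.8 and 66.0.

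Lower genes beyond DMSO were led by DYNC1LI2, a light intermediate chain of the dynein motor. DYNC1LI2 read 465 and 355 with the knockdown, 994 and 1422 with the control siRNA and 801 and 841 in DMSO. The log2 difference came to −1.49 (SE 0.27), with −1.06 in replicate 1 and −1.93 in replicate 2, and −0.37 on another probe set. Like each of the 15 lower genes, DYNC1LI2 had a limma adjusted p of 0.862 and was lower in 2 of 2 arrays. PPP1R1A, a protein phosphatase 1 inhibitor that EWS/FLI is known to activate, read 1044 and 777 against 2464 and 3209, with DMSO at 3027 and 2121. Its log2 fold change was −1.62 (SE 0.30), and the arrays of the other EZH2 siRNA (1273) and of TSA (887 and 1394) were also below both backgrounds. RBX1, the ring-finger subunit of cullin ubiquitin ligases, read 1909.7 and 1218 against 4664 and 4076 (log2 −1.50, SE 0.31), and its DMSO arrays read 4280.2 and 3105.

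TMEM50A had the largest difference of the 15 lower genes, −1.69 (SE 0.38), but its knockdown arrays lay far apart (678 and 266). The other EZH2 siRNA read 1389 for TMEM50A, between the control siRNA arrays at 1163 and 1768. ARFGAP2, a coat protein regulator of the Golgi, likewise read 2928 with the other EZH2 siRNA against 2795 and 2765 with the control siRNA and 1794 and 1035 with no.2. TERT, the catalytic subunit of telomerase, read 122 and 68.6 against 195 and 281 (log2 −1.14, SE 0.34), and 30.8 with the other EZH2 siRNA. CSPG5, a neural proteoglycan, read 2732 and 1987 against 4549 and 4962 (log2 −1.02, SE 0.25), with −0.23 on another probe set. SUPT4H1, a transcription elongation factor, gave −1.03 (SE 0.26), the selenophosphate synthetase SEPHS1 −1.01 (SE 0.28), and their other probe sets −0.38, and −0.45 and −0.49.

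The remaining lower genes of the 15 were similar in both replicate numbers. RANGRF, a Ran-binding protein, gave −1.04 and −1.12, the LIM protein CRIP1 −0.94 and −1.21 and the deaminase RIDA −1.01 and −1.27. Among them RANGRF was nearest to the control siRNA in DMSO (log2 −0.058), while DMSO replicate 2 came close to the knockdown for CRIP1 (940.5 and 575 in DMSO against 539 and 462). NDUFA1 and NDUFB11 belong to respiratory complex I and are described with it. As for PPP1R1A, both TSA arrays lay below both backgrounds for RBX1 (1709 and 2869), SUPT4H1 (576 and 794), RIDA (827 and 1165), RANGRF (380 and 603) and NDUFB11 (897 and 1830). For the rest of the 15 they did not, EZH2 among them (1257 and 1055).

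**Figure D3:**
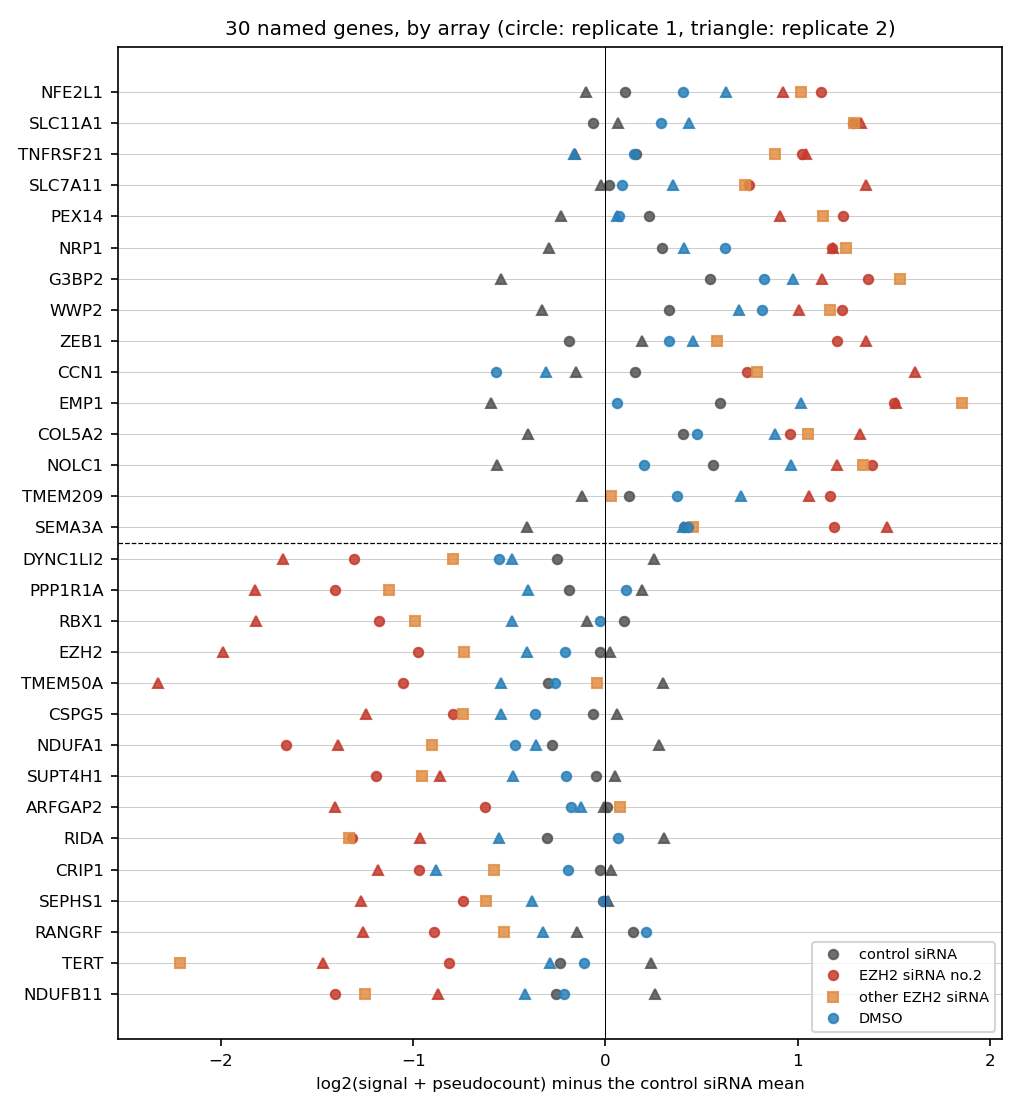
Log2(signal + 25.1) minus the control siRNA mean for the 15 higher and 15 lower genes of smallest limma p that lay beyond both control siRNA and both DMSO arrays; circles are replicate 1, triangles replicate 2, squares the other EZH2 siRNA. By choice of the genes all red knockdown points lie outside grey and blue ones; the orange square lies near the control siRNA for TMEM209, TMEM50A and ARFGAP2.

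RefSeq promoter sequence (GRCh38.p14, 250 bases upstream of the start, RefSeq strand of the gene) was matched by gene ID for 7471 of the 9103 genes, among them 42 of the 60 higher and 26 of the 32 lower genes beyond DMSO. EMP1 is shown as a study gene with 2 matches to TGANTCA, in capitals, at chr12:13196476-13196725 on the plus strand. This pattern is looser than the AP-1 motif, where N is C or G, so TGAGTCA fits that motif and TGATTCA does not. CCN2, a relative of CCN1, is shown because it has 3 matches to GGAATG, the TEAD type motif, in capitals, at chr6:131951373-131951622 on the minus strand. DYNC1LI2, the gene with the smallest p, has none of the motifs searched and is shown with its 40 CG dinucleotides in capitals, at chr16:66751610-66751859 on the minus strand.
EMP1: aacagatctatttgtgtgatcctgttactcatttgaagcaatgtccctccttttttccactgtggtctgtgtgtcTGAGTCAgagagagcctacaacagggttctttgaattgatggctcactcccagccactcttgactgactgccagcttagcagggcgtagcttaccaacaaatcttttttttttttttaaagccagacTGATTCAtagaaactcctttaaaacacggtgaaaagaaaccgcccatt
CCN2: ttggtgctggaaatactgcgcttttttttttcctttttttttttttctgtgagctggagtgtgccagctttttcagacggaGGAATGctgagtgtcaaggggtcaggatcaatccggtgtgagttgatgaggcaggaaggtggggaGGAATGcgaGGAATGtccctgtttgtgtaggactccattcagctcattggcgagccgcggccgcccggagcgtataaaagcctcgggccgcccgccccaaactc
DYNC1LI2: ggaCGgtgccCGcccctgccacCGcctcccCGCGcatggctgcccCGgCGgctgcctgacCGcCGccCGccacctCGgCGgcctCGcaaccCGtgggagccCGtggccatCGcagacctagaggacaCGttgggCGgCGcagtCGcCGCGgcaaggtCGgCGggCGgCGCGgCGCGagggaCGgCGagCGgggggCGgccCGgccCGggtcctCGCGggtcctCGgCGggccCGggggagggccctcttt
Both strands were searched, and TGANTCA was found in 3.98% of all 7471 windows, in 2 of the 42 higher genes (EMP1 and IL1A) and in 0 of the 26 lower genes. GGAATG was found in 9.33% of all windows, in 6 of the 42 higher genes (14.3%), in 0 of the 26 lower genes and in 5 of 16 windows of genes that EWS/FLI represses (31.2%), namely CCN2, SPARC, IGFBP5, THBS1 and DKK1. Of these, CCN2, SPARC and THBS1 were higher without overlap, but IGFBP5 was lower without overlap (log2 −0.73) and DKK1 gave −0.0075. The median number of CG dinucleotides per window was 21.0 over all genes, 15.5 for the higher and 24.0 for the lower genes. CCGGAAG, an ETS type motif, was in 15.3% of all windows, in 7 of the 42 higher genes (16.7%), in 6 of the 26 lower genes (23.1%), in 0 of the 16 genes that EWS/FLI represses and in 2 of 15 that it activates (13.3%). GGAAGGAA and AAGATGGC were also searched and were in 3.01% and 1.85% of all windows. Such matches describe letters in a window and not binding sites.

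A further 67 higher and 8 lower genes of at least 2-fold without overlap did not lie beyond both DMSO arrays. For the receptor tyrosine kinase ERBB4 the knockdown read 447 and 445 and the control siRNA 163 and 177, but DMSO read 533 and 465, above the knockdown. ERBB4 thus differed from DMSO by −0.15 and from the control siRNA by 1.27 (SE 0.28), and another probe set gave 0.24. The kinase MAPK10 came close to this, with 194 and 279 in the knockdown, 106 and 95.4 in the control siRNA and 294 and 275 in DMSO. IL7R, a cytokine receptor, read 71.9 and 165 with the knockdown and 75.5 and 126 in DMSO, against control siRNA signals under the pseudocount (8.47 and 23.3). The platelet collagen receptor GP6 gave 1.34 (SE 0.38) with the knockdown and 1.43 in DMSO. The microtubule protein CLIP1 gave 1.43 (SE 0.36) with the knockdown and 1.17 in DMSO, and another CLIP1 probe set gave 0.72. MARCKS, CAVIN1 and GANAB gave 1.24, 1.28 and 1.15, with DMSO above the control siRNA by 0.84, 0.98 and 0.97. Further probe sets gave 1.01, 0.79 and 0.48 for MARCKS and 1.35 for GANAB.

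On the lower side HSD17B2, a steroid dehydrogenase, read 198 and 86.9 against 314 and 558 with the control siRNA, and DMSO read 221 and 163. SERINC5 (−1.32, SE 0.40), RSRP1 (−1.05, SE 0.34) and NGFR (−1.19, SE 0.41) had DMSO arrays below the control siRNA with differences of −0.997, −0.68 and −0.67, and another RSRP1 probe set gave −0.04 with the knockdown. For H2BC12L and SURF2 the difference lay in replicate 1, at −1.96 and −0.18 and −2.28 and −0.33 in the replicate numbers, and control siRNA replicate 1 was the high array (control signals of 916 and 396 for H2BC12L and 284 and 91.5 for SURF2). VRTN (−1.20) and TMLHE (−1.15) completed these 8 genes.

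EZH2 siRNA no.2 was also set against the control siRNA and DMSO groups together, where 0 of 9103 genes passed limma (0%, lowest adjusted p = 0.702). In this comparison 281 higher (3.09%) and 247 lower genes (2.71%) had an unadjusted p under 0.05 (5.8% either way). The 5 higher genes of smallest p were CCN1, CCN2, HTR1E, TNFRSF21 and JUN. CCN2, which like CCN1 is a secreted protein induced by mechanical and YAP signalling, read 344 and 459 with the knockdown, 252 and 109.5 with the control siRNA and 57.1 and 104 in DMSO. The joint difference was 1.58 (SE 0.34) for CCN2 and 1.39 (SE 0.28) for CCN1, and both genes were lower in DMSO than in the control siRNA (−0.91 and −0.44). The other EZH2 siRNA read 190.0 for CCN2, inside the control siRNA range, and 636 for CCN1, above it.

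JUN, a subunit of AP-1, read 485 and 534 against 331 and 227 with the control siRNA and 138 and 196 in DMSO, a joint difference of 1.16 (SE 0.26), but its other probe sets gave 0.27 and 0.72 against the control siRNA. HTR1E, a serotonin receptor, was at low signals of 119.5 and 102 with the knockdown, 34.2 and 32.1 with the control siRNA and 13.8 and 8.56 in DMSO. On the lower side PPP1R1A, DYNC1LI2, RBX1 and EZH2 headed this comparison too, with −1.54 (SE 0.26), −1.23 (SE 0.23), −1.37 (SE 0.27) and −1.33 (SE 0.28). GSTT1, a glutathione transferase, read 23.2 and 13.5 against 78.8 and 51.5 with the control siRNA and 151 and 162 in DMSO, a joint difference of −1.56 (SE 0.34) that was larger against DMSO (−2.07) than against the control siRNA (−1.05).

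Members of 25 gene lists were then read beside all genes tested, whose median log2 fold change was 0.076 with 5329 positive and 3774 negative. No member of any list passed the adjusted threshold, so lists are given by counts and medians, and the lists share some genes. The medians of the PRC2, PRC1, HOX, developmental regulator, CDK inhibitor, cell cycle, endothelial, axon guidance, proteasome, cullin, interferon, RNA interference, cell death and housekeeping lists changed sign under another scaling or without 1 array, so no direction is drawn from them. Of the other PRC2 subunits, the recruiter JARID2 read 814 and 1051 against 553 and 532 (log2 0.74, SE 0.26) and PHF1 1736 and 1532 against 1172 and 1148 (log2 0.48, SE 0.26). For JARID2 and PHF1 the knockdown did not overlap the control siRNA, but DMSO was higher than the control siRNA by 0.62 and 0.52. The core subunits SUZ12 (0.024, SE 0.26) and EED (−0.11, SE 0.24), whose protein products hold the complex together with EZH2, differed from the control by less than their standard errors. The histone binders RBBP4 and RBBP7 gave −0.34 and −0.061, MTF2 −0.077 and the paralogue EZH1 0.20 (SE 0.34), whose other probe set gave −0.27. Of the 9 PRC2 genes 4 were positive and 5 negative, with a median of −0.06 (0.01 after quantile normalization), and EZH2 was the one at least 2-fold from the control siRNA.

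PRC1, the complex that binds the methylated histone, had 6 positive and 5 negative of 11 subunits and a median of 0.02 (−0.12 with array medians made equal). PHC2, its polyhomeotic subunit, read 2107 and 1886 against 1116 and 1431 (log2 0.65, SE 0.26) and lay above DMSO at 992 and 1483. PCGF1 gave −0.38 (SE 0.26), and PCGF3, PCGF2, CBX6, CBX7, PHC1, PHC3, SCMH1, RING1 and RYBP gave 0.16, 0.076, 0.15, −0.35, 0.056, −0.25, −0.10, 0.016 and −0.018, each less than its standard error from 0. RYBP went in opposite directions, with 0.67 in replicate 1 and −0.71 in replicate 2.

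Among the genes that oppose Polycomb, 8 of 12 were positive, 6 were higher and 1 lower without overlap (22.8% and 13.1% of all genes), and the median was 0.32 (0.43 in replicate 1 and 0.11 in replicate 2). For DMSO minus the control siRNA the list median was 0.12, and for the knockdown minus DMSO it was 0.14. SMARCA4, an ATPase of the SWI/SNF remodeller, read 3365 and 3254 against 1943 and 1618 (log2 0.89, SE 0.29), with 2668 and 2635 in DMSO. KDM6B, an H3K27 demethylase, read 631 and 794 against 477 and 427 (log2 0.62, SE 0.25), and both arrays lay above DMSO (518 and 550.2). The other demethylase, KDM6A, gave −0.41 (SE 0.32) and was lower without overlap, so the pair of demethylases did not share a direction. Without control siRNA replicate 1 the median of this list was 0.07.

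Classical Polycomb targets were mixed. Of 24 HOX genes with a probe set 20 were above the filter, with 11 positive and 9 negative, 3 higher and 1 lower without overlap, both smaller shares than the 22.8% and 13.1% of all genes, and a median of 0.15 (0.16 and −0.01 by replicate number, and −0.18 without control siRNA replicate 1). HOXD11, a posterior limb gene, read 1068 and 982 against 803 and 567 (log2 0.58, SE 0.26), and HOXC11 280.2 and 297 against 177 and 261 (log2 0.38, SE 0.29). HOXB6 gave 0.70 (SE 0.44) from low signals, with DMSO higher by 1.14. Of 32 other developmental regulators on the array 15 were tested and 17 lay below the filter, and the tested ones had a median of 0.079, close to that of all genes (−0.05 with array medians made equal), with 9 positive and 6 negative. WT1 gave 0.61 (SE 0.35), PAX6 −0.56 (SE 0.36) and PAX7 −0.80 (SE 0.47), and WNT5A gave −0.82 (SE 0.52), which came from a signal of 1872 in control siRNA replicate 2 alone.

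CDK inhibitors, which stop the cell cycle and include known EZH2 targets, had 3 of 6 positive and a median of 0.10 (−0.03 with array medians made equal). CDKN1A (p21) read 724 and 855 against 457 and 743 (log2 0.42, SE 0.28), with DMSO at 409 and 445, so the knockdown lay above DMSO and overlapped the control siRNA. CDKN2A read 101 and 139 against 87.7 and 83.7 (log2 0.38, SE 0.33). Of 31 DNA replication and G1/S genes 12 were positive and 19 negative (median −0.10), and of 32 mitosis genes 16 and 16 (median 0.01). Among them CCNE2, a cyclin of the S-phase entry, gave −0.62 (SE 0.31), the clamp loader subunit RFC4 −0.56 (SE 0.26) and CDK1 −0.38 (SE 0.25). The cell cycle medians changed sign with the array left out, for G1/S genes to 0.12 without EZH2 siRNA no.2 replicate 2 and for mitosis genes to −0.14 without control siRNA replicate 2.

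Genes that EWS/FLI represses had 18 of 23 tested members positive, and 13 were higher and 2 lower without overlap, where 22.8% and 13.1% of all genes were. The median was 0.41 against 0.076 for all genes, 0.36 and 0.46 by replicate number, and −0.000996 for DMSO minus the control siRNA. With the other EZH2 siRNA, against the same control siRNA arrays, it was 0.15. Unadjusted limma p under 0.05 was reached by 6 higher and 0 lower members, against 3.95% and 1.76% of all genes. COL6A3, a chain of collagen VI, read 170.0 and 160.5 against 66.0 and 46.4 with the control siRNA and 56.6 and 73.0 in DMSO (log2 1.24, SE 0.47). COL6A3, CCN1, CCN2 and COL5A2 were the 4 members at least 2-fold higher and beyond both backgrounds. FN1, fibronectin, read 14398 and 16209 against 11915 and 9719 (log2 0.50, SE 0.21), and CD44, the hyaluronan receptor, 128 and 308 against 84.4 and 124 (log2 0.82, SE 0.43). Negative members included IGFBP5 (−0.73, SE 0.56) and CTSK (−0.60, SE 0.32). Earlier results of these data were known when the list was drawn up, so its direction is no independent evidence. COL1A1, COL1A2 and COL3A1 are also fibroblast markers, though every array is of the one A673 line. Of 7 such markers 5 lay above the filter. The marker sums were 5646 and 6680 in the control siRNA arrays, 6972 and 7317 with EZH2 siRNA no.2 and 9247 and 8573 in DMSO. In bulk RNA, a change in the share of A673 cells that express a gene and a change in RNA per cell cannot be told apart.

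Genes that EWS/FLI activates had 17 of 21 members negative, with 7 lower and 2 higher without overlap (13.1% and 22.8% of all genes), and a median of −0.28 (−0.17 and −0.47 by replicate number, −0.03 for DMSO minus the control siRNA). PPP1R1A and TERT, described above, were the members at least 2-fold lower and beyond both backgrounds. GSTM4, a glutathione transferase regulated through GGAA repeats, read 1447 and 1559 against 2394 and 2543 with the control siRNA and 2708 and 2460.3 in DMSO. Its log2 fold change was −0.71 (SE 0.23), with −0.72 in replicate 1 and −0.70 in replicate 2. NKX2-2, a homeobox gene needed for Ewing sarcoma growth, read 3022 and 1363 against 2859 and 5631, so its fold change of −0.97 lay in replicate 2. JAK1 (−0.60, SE 0.26), ID2 (−0.59, SE 0.25) and PRKCB (−0.45, SE 0.23) were lower without overlap and beyond DMSO, while CAV1 (−0.026, SE 0.19) differed by less than its standard error. DKK2, a secreted Wnt modulator, went the other way, 1721 and 1694 against 1049.5 and 764 (log2 0.91, SE 0.32), as did UPP1 (1.65, SE 0.61). The other EZH2 siRNA had a median of −0.0052 for these genes.

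Of the neuronal and glial genes 22 of 32 were positive, 6 were higher and 2 lower without overlap (22.8% and 13.1% of all genes), and the median was 0.16. Both shares were below those of all genes. NES, the progenitor filament nestin, gave 1.41 (SE 0.51), with 333 and 1208 against 310.1 and 162, and DMSO at 603 and 969. Without EZH2 siRNA no.2 replicate 2 NES gave 0.51. The neurofilament chains NEFH (1.04, SE 0.48), NEFM (0.71, SE 0.47) and NEFL (0.59, SE 0.55) overlapped the control siRNA. Synaptophysin (SYP) read 85.5 and 110.1 against 134 and 201 (log2 −0.63, SE 0.32), and the neuronal enolase ENO2 was also lower without overlap (log2 −0.32, SE 0.25). The median over this list was 0.04 for the knockdown minus DMSO.

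Endothelial genes were largely below the filter, which 9 of 21 passed, and CDH5, KDR, TEK, VWF and CLDN5 were among the 12 that did not. Of the 9 tested, 7 were positive, with a median of 0.21 and of −0.02 without control siRNA replicate 1. LYVE1, a hyaluronan receptor of lymphatic endothelium, read 80.3 and 95.9 with the knockdown, 12.2 and 17.0 with the control siRNA and 65.3 and 22.0 in DMSO (log2 1.51, SE 0.45), and its other probe set, below the filter, gave −0.06. PECAM1 gave 0.13 (SE 0.33) and ENG 0.22 (SE 0.33), less than their standard errors from 0.

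Axon guidance genes had 21 of 31 positive, 7 higher and 0 lower without overlap (22.8% and 13.1% of all genes), and a median of 0.21. The share of the list that was higher was thus near that of all genes. Besides SEMA3A and NRP1, described above, SEMA3C read 337 and 514 against 269.5 and 208 (log2 0.75, SE 0.31) and the ligand SLIT3 135 and 144 against 57.9 and 95.0 (log2 0.72, SE 0.33). The DMSO arrays, at 129 and 149 for SLIT3 and 235 and 340.0 for SEMA3C, overlapped the knockdown for both. Without control siRNA replicate 1 the median was −0.07. Receptor tyrosine kinases had 20 of 24 positive and a median of 0.17, but of −0.05 for the knockdown minus DMSO. RET (−0.67, SE 0.26) and the insulin receptor INSR (−0.77, SE 0.38) were lower without overlap, ROR2 (0.68, SE 0.39) was higher and beyond DMSO, and ERBB4 led the positive members.

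Matrix and adhesion genes had 20 of 31 positive, 11 higher and 3 lower without overlap (22.8% and 13.1% of all genes), and a median of 0.27. The basement membrane collagen COL4A1 read 1449.7 and 2681 against 885 and 1064 with the control siRNA and 1016 and 1681 in DMSO (log2 1.005, SE 0.33). TNC, tenascin, read 2640.2 and 4038 against 2164 and 1801 (log2 0.72, SE 0.30), and LAMC1, a laminin chain, 1717 and 2699 against 908 and 1692 (log2 0.78, SE 0.37), both beyond DMSO. The mesenchymal cadherin CDH11 read 4642 and 3372 against 6021 and 6946 (log2 −0.71, SE 0.29). MMP1 gave 1.45 (SE 0.97) from 0.072 in replicate 1 and 2.84 in replicate 2. The list median was 0.07 without EZH2 siRNA no.2 replicate 2.

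**Figure D4:**
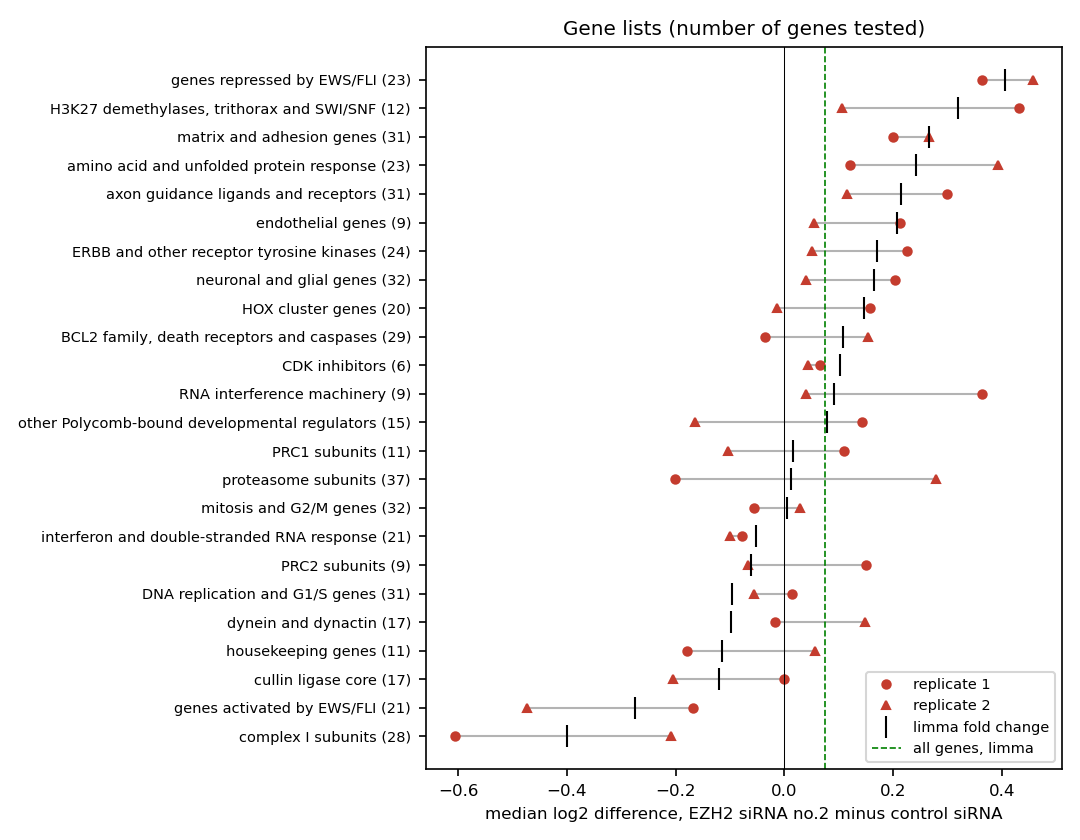
Median log2 difference of each gene list for replicate 1 (circle), replicate 2 (triangle) and the limma fold change (bar), with the number of genes tested in brackets; the dashed line marks the median of all genes, 0.076. Of the lists plotted, which leave out the study genes, those repressed by EWS/FLI lie highest at 0.41 and complex I subunits lowest at −0.40.

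Respiratory complex I, the NADH dehydrogenase of mitochondria, had the lowest median of the 25 lists. Of its 28 subunits tested 26 were negative and 2 positive, 18 were lower (64.3% of the list, where 13.1% of all genes were) and 1 was higher without overlap. The median was −0.40, with −0.61 in replicate 1, −0.21 in replicate 2 and −0.12 for DMSO minus the control siRNA, and 6 members were lower at an unadjusted limma p under 0.05, against 1.76% of all genes. NDUFA1, an accessory subunit of the membrane arm, read 1387 and 1674 with EZH2 siRNA no.2, 3659.6 and 5383 with the control siRNA and 3194 and 3447 in DMSO (log2 −1.53, SE 0.38). NDUFB11 read 1219 and 1781 with the knockdown, against 2742 and 3919.9 with the control siRNA and 2821 and 2449 in DMSO (log2 −1.14, SE 0.34). NDUFS7, which carries an iron-sulphur cluster, read 514 and 507 with the knockdown, against 1106 and 979.8 with the control siRNA and 1071 and 837 in DMSO (log2 −0.99, SE 0.25).

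NDUFB8 gave −0.91 (SE 0.25) on its brightest probe set and −0.31 and 0.15 on its others. NDUFB3 (−0.80, SE 0.32) and NDUFB7 (−0.78, SE 0.30) were the other members lower at an unadjusted p under 0.05. The core subunits NDUFS1 (−0.25, SE 0.26) and NDUFV1 (−0.28, SE 0.22) differed less than NDUFS7, which is also a core subunit. NDUFA5 was the member higher without overlap (0.33, SE 0.32). The median stayed negative with array medians made equal (−0.55) and after quantile normalization (−0.34), and it was −0.22 without EZH2 siRNA no.2 replicate 1 and −0.65 without EZH2 siRNA no.2 replicate 2. With the other EZH2 siRNA, set against the same control siRNA arrays, it was −0.44.

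**Figure D5:**
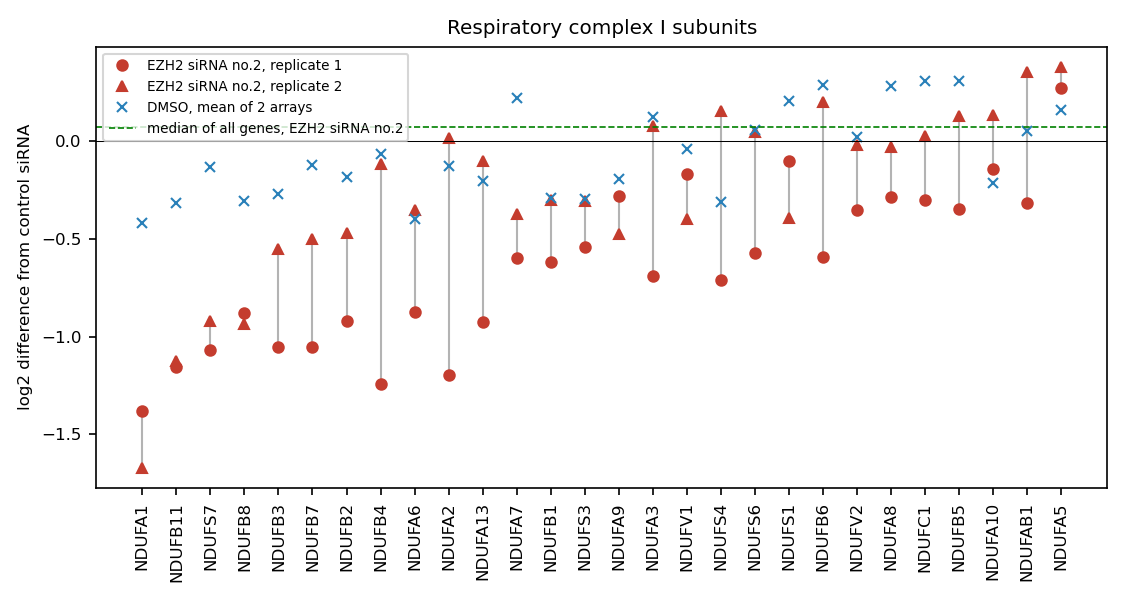
Log2 difference from the control siRNA for the 28 complex I subunits tested, in replicate 1 (circles) and replicate 2 (triangles) of EZH2 siRNA no.2, with the DMSO mean as crosses and the median of all genes (0.076) dashed. NDUFA1, NDUFB11, NDUFS7 and NDUFB8 lie at or below −0.88 in both replicate numbers, and the list median is −0.61 in replicate 1 and −0.21 in replicate 2.

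Other lists of abundant transcripts, chosen after the complex I values were seen, were lower mainly in replicate 1. Subunits of respiratory complexes II to V had 32 of 34 negative, 17 lower without overlap (13.1% of all genes) and a median of −0.31, but −0.62 in replicate 1 and −0.04 in replicate 2. Cytosolic ribosomal proteins had 50 of 55 negative and a median of −0.25, with −0.57 in replicate 1 and 0.05 in replicate 2. Mitochondrial ribosomal proteins had 36 of 49 negative and a median of −0.23, with −0.37 and −0.03. With the other EZH2 siRNA, against the same control siRNA arrays, these lists were lower too. Their medians were −0.36 for complexes II to V, −0.32 for cytosolic and −0.20 for mitochondrial ribosomal proteins. Bright genes as a whole had lower values than dim ones, with a median of −0.04 among the genes above a mean signal of 1019, where 22.2% were lower without overlap, against 0.18 and 7.91% among those under 145. The highest signal on an array also differed, at 39131 for control siRNA replicate 1, 28215 for knockdown replicate 1 and 27430 for the other EZH2 siRNA. In replicate 2 it was 30586 for the control siRNA and 32525 for the knockdown. The median mean signal was 2269 for complex I members, against 413 for all genes tested. The part of signal level in the values of complex I and of these other lists, with either siRNA, was not tested.

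Proteasome subunits, which NFE2L1 drives, had 20 of 37 positive and a median of 0.01, with −0.20 in replicate 1 and 0.28 in replicate 2. The activator subunit PSME1 gave 0.47 (SE 0.28) and the immunoproteasome subunit PSMB10 −0.58 (SE 0.38). Cullin ligase genes had 8 positive and 9 negative of 17 (median −0.12), with RBX1 the one member at least 2-fold lower. Elongin B (ELOB), an adaptor of the same ligases, read 1531 and 2485 against 2859.7 and 3673 (log2 −0.72, SE 0.32), CUL4A gave −0.50 (SE 0.33), and the other members ranged up to 0.20. Dynein and dynactin genes had 11 of 17 negative (median −0.10), with DCTN3 at −0.66 (SE 0.25), DYNC1I1 at −0.47 (SE 0.25) and DCTN1 at 0.66 (SE 0.27), and DYNC1LI2 was the one member at least 2-fold from the control siRNA.

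Amino acid and unfolded protein response genes had 16 of 23 positive, 10 higher and 1 lower without overlap (22.8% and 13.1% of all genes), and a median of 0.24, but DMSO was above the control siRNA by 0.29 and the knockdown minus DMSO was −0.06. The kinase-like TRIB3, an ATF4 target, read 1003 and 1429 against 920.4 and 368 with the control siRNA and 1389 and 1588 in DMSO, so the low array was control siRNA replicate 2. HSPA5, the ER chaperone BiP, read 6676 and 9282 against 5845 and 4137 and lay above DMSO at 5802 and 6432 (log2 0.68, SE 0.27). ATF4 itself gave −0.096 (SE 0.26) and ASNS 0.066 (SE 0.36), less than their standard errors from 0.

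Interferon and double-stranded RNA response genes, which a short RNA can induce, had 10 of 21 positive, 1 higher and 4 lower without overlap (22.8% and 13.1% of all genes), and a median of −0.05. ISG15 read 696 and 795 against 1100.2 and 1329 (log2 −0.68, SE 0.31), IFITM3 2146 and 2301 against 3302 and 3590.5 (log2 −0.63, SE 0.25) and OAS1 259 and 267 against 324 and 513 (log2 −0.59, SE 0.28). RNA interference genes had 6 of 9 positive (median 0.09), with DROSHA at 0.72 (SE 0.30) and the Dicer partner TARBP2 at −0.65 (SE 0.25).

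BCL2 family, death receptor and caspase genes had 16 of 29 positive, 11 higher and 6 lower without overlap (22.8% and 13.1% of all genes), and a median of 0.11. The survival gene BCL2L1 read 689 and 959 against 444 and 244 (log2 1.24, SE 0.44), with DMSO replicate 2 at 727, inside the knockdown range. Caspase 8 (CASP8) read 496 and 739 against 392 and 278 (log2 0.83, SE 0.29), and DMSO at 526 and 513 lay above the lower knockdown array. The death effector BAX gave −0.99 (SE 0.41) and the mitophagy receptor BNIP3L −0.98 (SE 0.40). Housekeeping genes had 3 of 11 positive and a median of −0.11, and 0 were higher and 2 lower without overlap (22.8% and 13.1% of all genes).

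The opposite differences in the replicate numbers were largest for CFAP70, PLEK2 and POU5F1B. CFAP70 read 216 and 14.4 in the control siRNA arrays and 25.9 and 159 with EZH2 siRNA no.2, a log2 difference of −2.24 in replicate 1 and 2.22 in replicate 2. PLEK2 gave −1.16 and 1.84, from knockdown signals of 25.9 and 376, and POU5F1B 1.42 and −1.14, from control signals of 38.5 and 229.5. Their mean fold changes of −0.0085, 0.34 and 0.14 say nothing of the single arrays.

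The siRNAs against EZH2 were set against each other last, with the spread of the single array taken from the groups of 2. Of 9103 genes 0 passed limma (0%, lowest adjusted p = 1.00), and 120 (1.32%) were higher and 50 (0.549%) lower with no.2 at an unadjusted p under 0.05 (1.87% either way). Both comparisons use the same control siRNA arrays, so the values of the other siRNA are given only side by side. Against the control siRNA it gave 1.02 for NFE2L1, 0.88 for TNFRSF21, 1.85 for EMP1, 0.72 for SLC7A11 and 0.79 for CCN1. Among lower genes it gave −1.13 for PPP1R1A, −0.99 for RBX1, −0.80 for DYNC1LI2 and −0.90 for NDUFA1. For TMEM209 (0.027), TMEM50A (−0.046) and ARFGAP2 (0.074) it lay near the control siRNA.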

How the data were processed

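Expression was deposited as MAS5 intensity, named so per the submitters' processing notes, and without detection calls. The scaling and the MAS5 version are not given in the sources used here. Of 22283 probe sets, 68 were controls, 19065 had one gene symbol, 1043 several and 2107 none, from a platform annotation, and symbols were checked by gene ID against RefSeq (19053 matched). Probe sets with a mean under the 30th percentile (53.2) were left out, which kept 13671, and the brightest of each gene was used (9103 genes).

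Group means of log2(signal + 25.1), the pseudocount being the 20th percentile of all values, went into one limma 3.58.1 fit (R 4.3.3) of all 9 arrays (eBayes with trend, 4 residual and 7.39 prior degrees of freedom). Fold changes on this scale understate those of dim genes. Two-sided p-values were adjusted by Benjamini-Hochberg and read at 0.05. The fit was tested on simulated data.

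Groups do not overlap where every array of one lies beyond every array of the other. EZH2, PRC2, PRC1 and study genes were named whatever their values. The others were those of smallest p among genes of at least 2-fold without overlap, 15 each way beyond DMSO and 8 each way not, 5 each way against both controls, up to 4 from each list, and the 3 most opposite in the replicate numbers. The genes named besides them were chosen after their values were seen. Members, lists and rules were chosen with earlier results of these data known.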

Additional observations from a re-analysis of the deposited data

How the results depend on the processing

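The alternatives were other pseudocounts, no filter or a stricter one, every probe set, quantile normalization, equal medians, eBayes without the trend, only the groups compared, a block for the replicate number, and fits without 1 array each; those without a DMSO array or the other EZH2 siRNA were chosen after seeing the data. The log2 fold change of EZH2 stayed negative under all of them, from −1.99 to −0.98, and 0 genes passed the adjusted threshold against the control siRNA or against both controls. Against the other EZH2 siRNA 1 gene passed when only the groups compared were fitted. No label says that the replicate numbers pair cultures. The deviations of the numbered control and knockdown arrays correlated at 0.27, and those of all pairs of numbered groups at 0.054 to 0.38. Spike-ins were also lower in replicate 1 than in replicate 2 for DMSO (10.13 and 10.45) and TSA (10.06 and 10.43). What the numbers share was not tested. With the numbers as a block EZH2 kept −1.48, and genes at an unadjusted p under 0.05 numbered 565 higher and 243 lower against 360 and 160.

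Genes of at least 2-fold without overlap numbered 208 higher and 61 lower with the pseudocount at the 5th percentile (5.42), 25 and 11 at the 40th percentile (87.2), 55 and 23 with the filter at the 50th percentile, 70 and 69 with equal medians, and 64 lower with no filter. Those beyond DMSO numbered 9 and 9 at the 40th percentile, 28 and 18 with the stricter filter, 35 and 49 with equal medians, and 49 lower with no filter. Leaving out 1 array gave 127 to 317 higher and 40 to 180 lower genes without overlap, and 74 to 263 higher and 24 to 125 lower genes beyond DMSO. It gave 168 to 402 higher and 84 to 245 lower genes at an unadjusted p under 0.05. With equal medians these unadjusted counts were 176 higher and 338 lower. Counts without overlap are easier to reach with fewer arrays, so those without 1 array are not comparable with the others.

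The sign of some small fold changes was reversed, and the cause was not tested. With equal medians SUZ12 gave −0.12, PCGF2 −0.061, PHC1 −0.084 and RING1 −0.12. After quantile normalization RBBP7 gave 0.014, RING1 −0.021 and POU5F1B −0.00188, and CFAP70 gave 0.12 with the lower pseudocount. With 1 array left out the PRC2 genes ran from −0.68 to 0.00337 for RBBP4, −0.087 to 0.49 for EZH1, −0.31 to 0.10 for EED, −0.23 to 0.076 for MTF2 and −0.18 to 0.23 for SUZ12. The PRC1 genes ran from −1.02 to 0.32 for CBX7, −0.80 to 0.30 for PHC3, −0.12 to 0.44 for PCGF3, −0.43 to 0.74 for CBX6, −0.32 to 0.12 for SCMH1, −0.015 to 0.17 for PCGF2, −0.12 to 0.23 for PHC1, −0.057 to 0.090 for RING1 and −0.37 to 0.33 for RYBP. The remaining genes that were reversed ran from −0.15 to 0.76 for CDKN1B, −1.69 to 0.048 for WNT5A, −1.05 to 0.042 for CUL4A, −0.86 to 0.075 for AGO3, −1.31 to 1.29 for CFAP70, −1.15 to 1.83 for PLEK2 and −0.86 to 1.14 for POU5F1B.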
